A study of Homo sapiens with 2 samples.

Results

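Paclitaxel-resistant SUM159 cells grown attached to plastic were set against treatment-naïve SUM159 cells grown the same way, gene by gene and cell by cell. All deposited cells of both populations were taken, without selection, which gave 11201 of the 30122 cells in the series: 5896 paclitaxel-resistant and 5305 treatment-naïve cells. SUM159 is a human line of triple-negative breast cancer that holds cells from an epithelial-like to a mesenchymal state. The resistant population had been selected from attached SUM159 cells by long exposure to rising doses of paclitaxel, and the treatment-naïve cells had received no drug. Both carried no engineered change and grew in Ham's medium with serum, insulin and hydrocortisone. The transcripts of a breast cancer gene panel were counted in single cells as unique molecular identifiers (UMIs), with both populations tagged and pooled on one cartridge together with a doxorubicin-resistant population. A second cartridge held spheroids of the same 3 kinds of cells. Each population is 1 selected culture, so a difference between these cultures cannot be told apart from an effect of the drug, no test was possible, and every interval given covers counting error only.

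Paclitaxel binds the tubulin of microtubules, stabilises them and stalls cells in mitosis. Cells that survive it are known to do so in several ways, among them pumping the drug out through P-glycoprotein, the product of ABCB1, which also exports anthracyclines. Epithelial-mesenchymal transition, in which carcinoma cells lose keratins and junction proteins and gain vimentin and matrix proteins, is often described in taxane-resistant breast cancer cells.

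The populations had been sampled to nearly the same depth. The paclitaxel-resistant cells held 23403880 UMIs, with a median of 3653 UMIs and 138 genes per cell, and the treatment-naïve cells 21423102 UMIs, with medians of 3710 UMIs and 135 genes. No cell barcode was shared between them. Levels are given as counts per 1000000 (CPM) of a population's panel UMIs, so a value is a share of the panel and not of the whole transcriptome. GAPDH, a glycolytic enzyme and the most abundant transcript, took 169913 CPM in paclitaxel-resistant cells and 167454 CPM in treatment-naïve cells. The label was checked against 4 markers expected in the line. VIM, KRT18 and CD44 were found in at least 99.8% of the cells of either population, and KRT8 in 98.9% of paclitaxel-resistant and 91.5% of treatment-naïve cells. Of the receptors expected low in a triple-negative line, ESR1 was found in 1.65% of paclitaxel-resistant and 0.245% of treatment-naïve cells, but ERBB2 in 96.7% of paclitaxel-resistant and 87.3% of treatment-naïve cells, at 1194 against 748 CPM. Of 9 genes that mark blood cells, 7 were in the files, and 6 of these were found in at most 2.99% of cells, while the remaining one, CD14, was found in 23.7% of paclitaxel-resistant and 43.4% of treatment-naïve cells.

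Of 262 genes with at least 50 UMIs in either population, 53 (20.2%) were higher in paclitaxel-resistant cells by 2-fold or more and 66 (25.2%) were lower by as much, with the 50 UMIs asked of the higher population. The median log2 fold over the 262 genes was -0.02. Only genes past this rule are said to have risen or fallen, and genes that differed by less are called under the rule. The shares of 20.2% and 25.2% are those to set beside the counts of list members below. A few abundant genes carried most of the change in composition. The 53 genes that rose made up 409239 CPM of the paclitaxel-resistant panel and 169189.5 CPM of the treatment-naïve one, and the 66 that fell made up 75461 against 313984 CPM. LGALS1, VIM, FN1, CAV1 and KRT18 alone held 69.5% of all CPM gained, and CXCL8, IL1B, CCL5 and PLAU were among the genes that lost most.

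**Figure D1:**
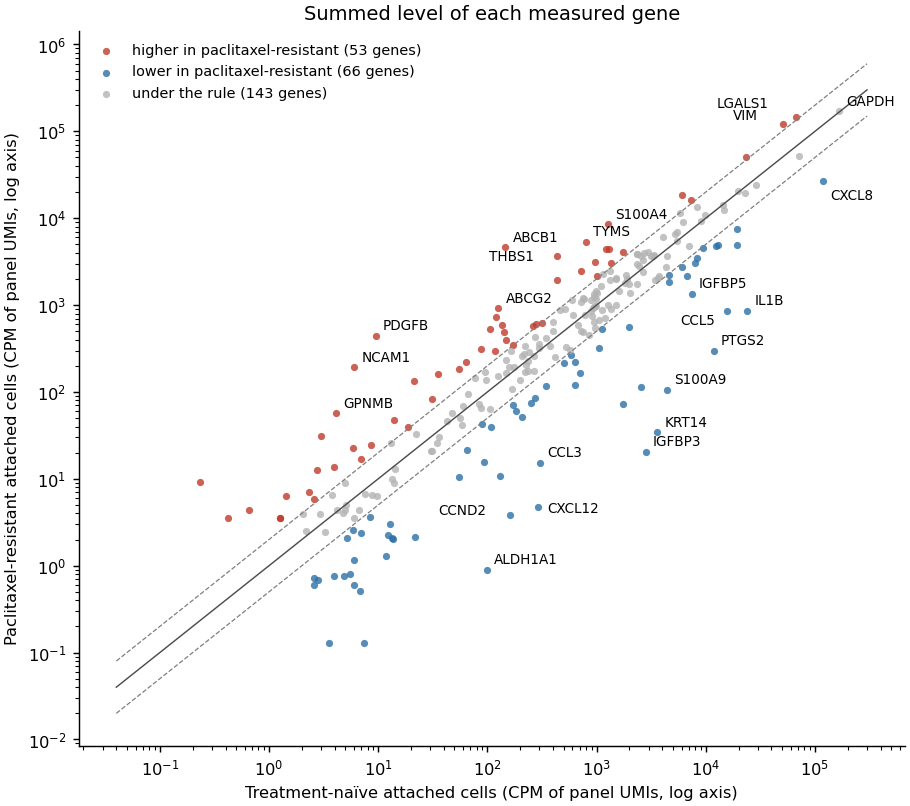
Summed level of each of the 262 measured genes in paclitaxel-resistant cells (vertical axis) and treatment-naïve cells (horizontal axis), in CPM of panel UMIs on log axes. The solid line marks equal levels and the dashed lines a 2-fold difference; 53 genes lie above the upper dashed line and 66 below the lower one, with ABCB1, PDGFB and NCAM1 among the farthest above and IGFBP3, ALDH1A1 and KRT14 among the farthest below.

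Both efflux pumps of the panel rose, and they did so in most cells. ABCB1, which encodes P-glycoprotein and lies at chr7:87503017-87713295 on the minus strand of GRCh38.p14, stood at 4648 CPM in paclitaxel-resistant cells and 146 CPM in treatment-naïve cells, 31.8-fold higher in paclitaxel-resistant cells (95% counting interval 30.7 to 32.9). It was detected in 93.1% of paclitaxel-resistant and 36.7% of treatment-naïve cells. To compare shares at equal depth, every cell was thinned to 2000 UMIs, which left out 489 paclitaxel-resistant and 511 treatment-naïve cells. The ABCB1 shares were then 89.3% and 22.2%. After thinning, 79.8% of paclitaxel-resistant cells had more ABCB1 UMIs than the 95th percentile of treatment-naïve cells. The shift therefore ran through the population rather than through a small fraction of it. ABCG2, the breast cancer resistance protein and a pump for other classes of drug, stood at 919.8 CPM in paclitaxel-resistant cells and 126 CPM in treatment-naïve cells, 7.31-fold higher in paclitaxel-resistant cells (95% counting interval 7.02 to 7.61). Its transcripts were found in 82.3% of paclitaxel-resistant and 30.9% of treatment-naïve cells, or 70.4% against 18.9% after thinning.

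Cells at the edges of the ABCB1 distribution otherwise looked like their own population. In the paclitaxel-resistant population 409 cells (6.94%) had no ABCB1 UMI, and they were shallower, with a median of 3129 UMIs against 3694 in the other resistant cells. LGALS1, encoding galectin-1, nevertheless stood at 147881 CPM in these cells and 146373 CPM in the other resistant cells, and PDGFB at 597 and 436 CPM. The same held for genes that had fallen: KRT14 was at 28.2 CPM without ABCB1 and 34.97 CPM with it, against 3611 CPM in treatment-naïve cells, and IL1B was at 916 and 859.6 CPM, against 24049 CPM. Resistant cells without a detected ABCB1 transcript thus had the resistant pattern at each of the 13 other genes looked at. On the other side, 34 treatment-naïve cells (0.641%) had more than 5 ABCB1 UMIs and held 11.7% of that population's ABCB1 UMIs. Their median depth was 4864 UMIs, against 3707 in the other treatment-naïve cells. ABCG2 was at 129 CPM in them and 126 CPM in the rest, THBS1 at 425 and 437 CPM, and IGFBP3 at 2970.2 and 2822 CPM. S100A4 was higher in them, at 1762 against 1272 CPM, and S100A9, PTGS2 and IGFBP5 were lower, at 2619 against 4397, 8658 against 11822 and 5509 against 7473 CPM. In CPM these differences ran in the direction of the resistant population but stayed far from its levels. Those were 8571 CPM for S100A4, 106 for S100A9, 297 for PTGS2 and 1353 for IGFBP5. KRT14 and IL1B leaned the same way, at 3081 against 3615 and 19818 against 24082 CPM. TYMS leaned away, at 672 against 795 CPM, where resistant cells stood at 5359.8 CPM. PDGFB and NCAM1 had only 1 and 3 UMIs in these 34 cells. Shares of cells did not always follow the CPM values. S100A9 was found in 61.8% of the 34 cells and 56.7% of the rest, and IGFBP5 in 79.4% and 70.1%, though the 34 cells were deeper. Sums over 34 cells can rest on a few of them.

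**Figure D2:**
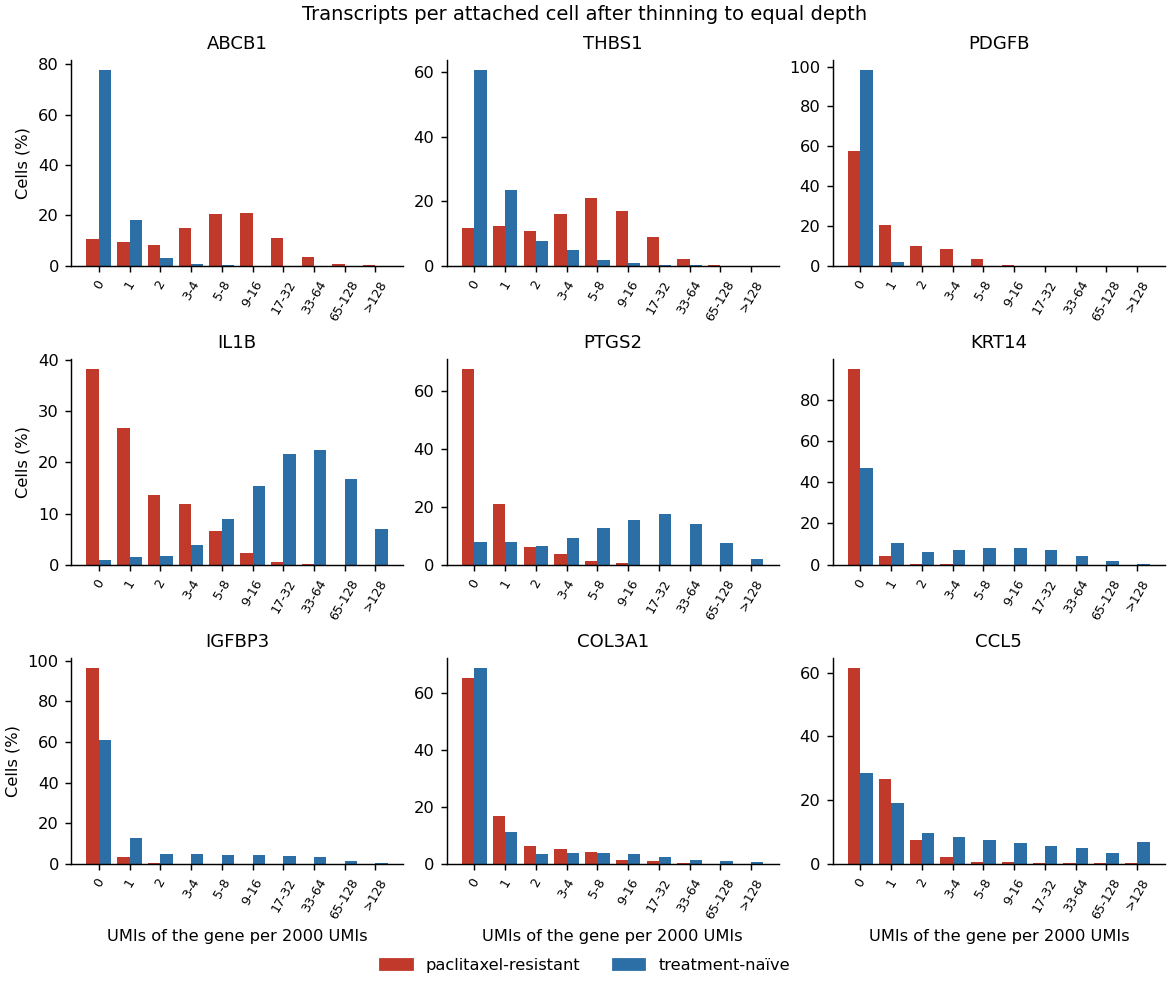
Share of cells (vertical axis, percent) by the number of UMIs of 9 genes per 2000 UMIs (horizontal axis), for paclitaxel-resistant cells (red, left bar) and treatment-naïve cells (blue, right bar). Most resistant cells sit at 3 or more ABCB1 UMIs and 77.8% of naïve cells at 0; COL3A1 differs mainly in the right tail of the naïve cells, while CCL5 is at 0 in 61.5% of resistant and 28.6% of naïve cells.

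Mesenchymal genes shifted upward: of 11 measured, 6 rose and 1 fell, with a median log2 fold of 1.12 beside -0.02 over all measured genes. THBS1, the matrix protein thrombospondin-1, stood at 3716 CPM in paclitaxel-resistant cells and 437 CPM in treatment-naïve cells, 8.51-fold higher in paclitaxel-resistant cells (95% counting interval 8.33 to 8.697), and was detected in 92.6% of paclitaxel-resistant and 53.9% of treatment-naïve cells. S100A4, a calcium-binding protein linked to cell motility, stood at 8571 CPM in paclitaxel-resistant cells and 1276 CPM in treatment-naïve cells, 6.72-fold higher in paclitaxel-resistant cells (95% counting interval 6.64 to 6.81), in 95.6% of paclitaxel-resistant and 57.6% of treatment-naïve cells. These genes gained both in the share of cells and in the level per cell. VIM, the intermediate filament vimentin, and CAV1, the caveolar coat protein caveolin-1, were already found in nearly every treatment-naïve cell, and only their level differed. VIM stood at 121147 CPM in paclitaxel-resistant cells and 51347 CPM in treatment-naïve cells, and 84.3% of thinned resistant cells exceeded the 95th percentile of naïve cells. CAV1 stood at 18446 CPM in paclitaxel-resistant cells and 6069.7 CPM in treatment-naïve cells, with 62.3% above that percentile. FN1, encoding fibronectin, also rose, at 50773 against 23324 CPM, but only 21.8% of resistant cells lay above the naïve 95th percentile. LGALS1, which was in none of the lists, had the widest such separation of the 3 most abundant risers, at 146462 against 67431 CPM with 88.5% of resistant cells above the percentile. The collagen genes COL1A1 and COL3A1, counted here with the matrix genes, did not rise: COL1A1 was at 2378 against 2675 CPM and under the rule, and COL3A1 fell. PDGFRB, a member of the mesenchymal list, was under the rule at 884 against 463 CPM. ACTA2, the smooth muscle actin, was the 1 mesenchymal gene that fell, at 535 against 1110.2 CPM, and the transcription factor SNAI2 was at 2172 against 3770.0 CPM, 1.74-fold lower and under the rule.

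Among secreted matrix and protease genes 4 of 14 rose and 2 fell, beside 20.2% and 25.2% of all measured genes. WISP1, a matricellular protein of the CCN family, stood at 588 CPM in paclitaxel-resistant cells and 135 CPM in treatment-naïve cells, 4.34-fold higher in paclitaxel-resistant cells (95% counting interval 4.17 to 4.52). PLAU, the urokinase plasminogen activator, moved the other way, at 4876 CPM in paclitaxel-resistant cells and 19353 CPM in treatment-naïve cells, 3.97-fold lower in paclitaxel-resistant cells (95% counting interval 3.94 to 3.996), and was detected in 98.9% of paclitaxel-resistant and 99.8% of treatment-naïve cells. Its fall was thus one of level in cells that nearly all kept the transcript. COL3A1, the type III collagen chain, behaved differently. It stood at 565 CPM in paclitaxel-resistant cells and 1965 CPM in treatment-naïve cells, 3.48-fold lower in paclitaxel-resistant cells (95% counting interval 3.41 to 3.55), yet it was detected in more resistant than naïve cells, 45.7% against 40% and 34.6% against 31.1% after thinning. In thinned treatment-naïve cells the 5% of cells with most COL3A1 held 75.7% of its UMIs, and with those cells left out of the naïve side only, which lowers that side by construction, the resistant-over-naïve ratio was 1.07. With the top 5% left out of both populations COL3A1 was 1.89-fold lower in resistant cells. A small naïve fraction with very high counts thus carried part of the fall of COL3A1.

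The platelet-derived growth factor axis included the largest rise of the panel. PDGFB, the B-chain ligand, stood at 445 CPM in paclitaxel-resistant cells and 9.52 CPM in treatment-naïve cells, 46.8-fold higher in paclitaxel-resistant cells (95% counting interval 40.7 to 53.98). Its transcripts were found in 54.1% of paclitaxel-resistant and 3.36% of treatment-naïve cells, or 42.7% against 1.69% after thinning. The receptor PDGFRA rose too, to 4475 CPM in paclitaxel-resistant cells against 1311 CPM in treatment-naïve cells, and was found in 99.1% of paclitaxel-resistant and 80.2% of treatment-naïve cells. PDGFRB, the other receptor, as given above, and the ligand PDGFA, at 492 against 746 CPM, were under the rule.

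Of 12 adhesion molecules 4 rose and 1 fell, beside 20.2% and 25.2% of all measured genes. NCAM1, a neural cell adhesion molecule of the immunoglobulin family, stood at 194 CPM in paclitaxel-resistant cells and 6.07 CPM in treatment-naïve cells, 31.9-fold higher in paclitaxel-resistant cells (95% counting interval 26.8 to 38.3), in 48.7% of paclitaxel-resistant and 2.34% of treatment-naïve cells. CDH6, a cadherin of kidney and neural tissue, stood at 729 CPM in paclitaxel-resistant cells and 119 CPM in treatment-naïve cells, 6.11-fold higher in paclitaxel-resistant cells (95% counting interval 5.86 to 6.37), in 81.2% of paclitaxel-resistant and 25.99% of treatment-naïve cells. Both were rare in treatment-naïve cells and spread over a large part of the resistant population. CDH13, a cadherin without a transmembrane domain, was at 3640.2 against 4448 CPM and CD44, the hyaluronan receptor, at 11009 against 9930.4 CPM, both under the rule.

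Genes of the G1/S transition and DNA replication shifted upward, with 7 of 16 higher, 1 lower and a median log2 fold of 0.88. TYMS, thymidylate synthase, stood at 5359.8 CPM in paclitaxel-resistant cells and 794 CPM in treatment-naïve cells, 6.75-fold higher in paclitaxel-resistant cells (95% counting interval 6.64 to 6.86), in 91.2% of paclitaxel-resistant and 69.7% of treatment-naïve cells. MCM6, a subunit of the replicative helicase, stood at 1932 CPM in paclitaxel-resistant cells and 430.3 CPM in treatment-naïve cells, 4.49-fold higher in paclitaxel-resistant cells (95% counting interval 4.39 to 4.59), in 92.6% of paclitaxel-resistant and 64.3% of treatment-naïve cells. RRM2, the small subunit of ribonucleotide reductase, stood at 2482 CPM in paclitaxel-resistant cells and 725 CPM in treatment-naïve cells, 3.42-fold higher in paclitaxel-resistant cells (95% counting interval 3.36 to 3.48), in 67.01% of paclitaxel-resistant and 58.5% of treatment-naïve cells. CCNE2, cyclin E2, was 4.51-fold higher and stayed a transcript of few cells, at 23.5% against 9.99%. Mitotic genes shifted less: of 17, only ANLN, encoding the cytokinesis protein anillin, and UBE2T, a ubiquitin-conjugating enzyme of DNA crosslink repair, rose, at 4108 against 1731 CPM and 3035 against 1361 CPM, and the list median was 0.42. UBE2C, the ubiquitin-conjugating enzyme of the anaphase-promoting complex, was at 3789 against 3340.1 CPM, and KIF2C, a mitotic kinesin, at 1789 against 1827 CPM. The change in the cell cycle genes was therefore uneven, larger for DNA synthesis than for mitosis.

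The 250 bases before a RefSeq start of MCM6 and RRM2 are shown because these 2 replication genes rose together, share CCAAT matches and differ in E2F matches. They are in GRCh38.p14, at chr2:135876444-135876693 on the minus strand and chr2:10122489-10122738 on the plus strand, 5′ to 3′. The annotated RRM2 gene begins at 10122568, so part of its window lies inside the gene. Capitals mark matches to CCAAT and to the E2F letters TTTCGCGC or TTTGGCGC on either strand.
MCM6: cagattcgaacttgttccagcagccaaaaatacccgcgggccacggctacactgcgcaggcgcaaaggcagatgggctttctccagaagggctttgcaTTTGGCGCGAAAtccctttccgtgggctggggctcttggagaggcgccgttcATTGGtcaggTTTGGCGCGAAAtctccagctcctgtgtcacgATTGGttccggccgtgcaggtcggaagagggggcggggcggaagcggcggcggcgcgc
RRM2: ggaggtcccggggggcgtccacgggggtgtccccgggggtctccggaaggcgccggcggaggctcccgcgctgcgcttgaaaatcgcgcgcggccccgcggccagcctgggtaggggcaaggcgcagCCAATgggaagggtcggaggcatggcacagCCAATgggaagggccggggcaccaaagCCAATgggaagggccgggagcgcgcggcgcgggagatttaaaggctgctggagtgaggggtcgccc
MCM6 held 4 E2F matches in a pair of places, since the letters overlap there on both strands, and 2 CCAAT matches. RRM2 held 3 CCAAT matches and no E2F match. Of the 35116 promoters of the table, 0.968% held the E2F letters and 32.01% held CCAAT in this window. Of the mitotic genes that matched, 10 of 15 held CCAAT and 7 of 15 held TTTGAA, the core of the cell cycle homology region, found in 13.3% of all promoters. TTTGAA was in none of the 12 G1/S promoters, of which 4 held CCAAT and 2 held E2F letters. These matches are descriptions of letters and say nothing of binding.

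The populations also differed in how many cells carried mitotic transcripts. When all thinned cells were cut into tertiles by the summed UMIs of the mitosis list, 21.4% of paclitaxel-resistant and 47.9% of treatment-naïve cells fell in the lowest tertile, and 37.03% and 28.9% in the highest. Within these tertiles, TYMS was 1.67-fold, 2.84-fold and 8.39-fold higher in resistant cells from the lowest to the highest, and MCM6 2.14-fold, 4.21-fold and 6.49-fold. Both genes thus differed within each tertile, most of all in the highest. The tertiles are wide, with limits at 14 and 109 UMIs, and do not fully match the populations: in the lowest, the mitotic genes PTTG1 and CCNB1, each left out of its own sum, were 2.05-fold and 1.99-fold higher in resistant cells. RRM2 gave resistant-over-naïve ratios of 0.952, 2.101 and 2.49, and MYBL2, a transcription factor of the late cell cycle, 0.972, 1.71 and 3.09. Those 2 genes stood at like levels in the lowest tertile. Split by MKI67 instead, a marker of cycling cells, the ratio in cells with no MKI67 UMI was 3.37 for RRM2 and 5.54 for TYMS, so the low ratios of the lowest tertile depended on how low-mitotic cells were defined. ABCB1 was 34.9-fold, 25.99-fold and 36.9-fold higher in the 3 tertiles, and THBS1 8.903-fold, 8.31-fold and 9.103-fold, with little dependence on the mitotic level. PDGFB did vary with it, at 74.2-fold, 63.7-fold and 29.1-fold from the lowest to the highest tertile. Its treatment-naïve means there were only 0.0192, 0.0180 and 0.0159 UMIs per thinned cell, so these ratios rest on few naïve UMIs. Split by MKI67, the PDGFB ratio differed less, at 57.8 in cells with no MKI67 UMI and 41.1 in the others.

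**Figure D3:**
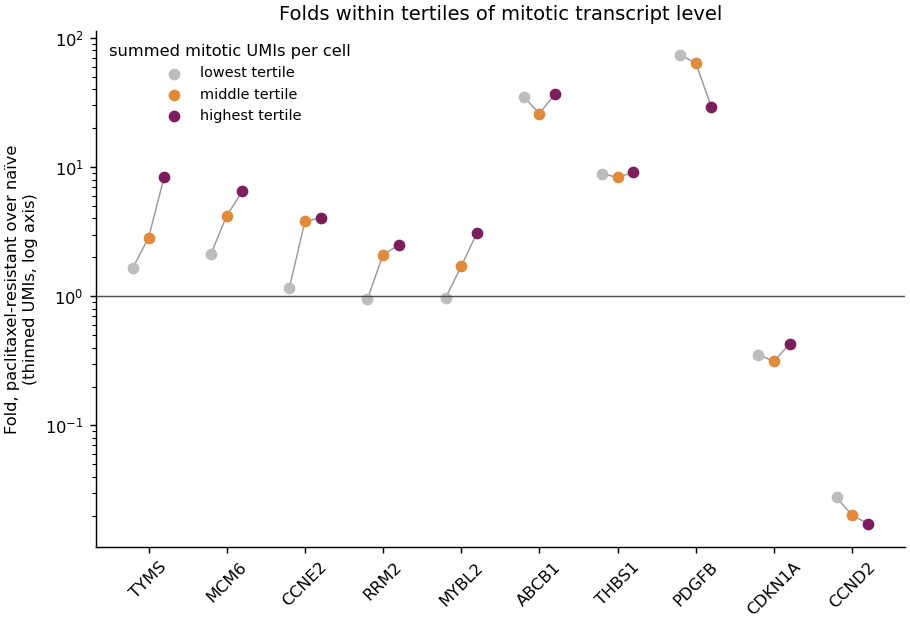
Ratio of thinned UMIs in paclitaxel-resistant over treatment-naïve cells (vertical log axis) for 10 genes, within tertiles of cells by summed mitotic UMIs, from the lowest (grey) over the middle (orange) to the highest tertile (purple). Ratios of TYMS and MCM6 climb with the mitotic level, up to 8.39 and 6.49, while those of ABCB1 and THBS1 stay between 25.99 and 36.9 and between 8.31 and 9.103. The ratio of PDGFB drops from 74.2 in the lowest to 29.1 in the highest tertile.

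Cyclins and cell cycle inhibitors did not move as one. CCND2, cyclin D2, stood at 3.85 CPM in paclitaxel-resistant cells and 162 CPM in treatment-naïve cells, 42.01-fold lower in paclitaxel-resistant cells (95% counting interval 34.1 to 52.4), and its transcripts were found in 1.36% of paclitaxel-resistant and 24.8% of treatment-naïve cells. CCND1, cyclin D1, was at 6967 against 5451 CPM and under the rule. CDKN1A, the p53-responsive inhibitor p21, stood at 3037 CPM in paclitaxel-resistant cells and 7904 CPM in treatment-naïve cells, 2.603-fold lower in paclitaxel-resistant cells (95% counting interval 2.58 to 2.63), and 36.4% of treatment-naïve cells exceeded the 95th percentile of resistant ones. It was lower in each mitotic tertile, with resistant-over-naïve ratios of 0.353, 0.313 and 0.428. CDKN1C, the inhibitor p57, rose at low level, 16.9 against 6.96 CPM. Of 11 inhibitors and apoptosis genes 2 rose and 2 fell, shares no larger than the 20.2% and 25.2% over all measured genes. BCL2, the anti-apoptotic mitochondrial protein, was among those that rose, at 83.3 against 31.4 CPM and in 25.9% of paclitaxel-resistant and 10.8% of treatment-naïve cells. CASP5, an inflammatory caspase, fell at low level, 2.99 against 12.8 CPM, and MDM2, the p53 ubiquitin ligase, was at 109 against 169 CPM. Of 4 DNA repair genes only BRCA1, of homologous recombination, rose, at 571 against 259.8 CPM and in 57.00% of paclitaxel-resistant and 42.3% of treatment-naïve cells.

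Inflammatory mediators fell. Of 16 measured, 9 were lower and 2 higher, and the median log2 fold was -2.13. Together they made up 36069 CPM of the paclitaxel-resistant panel and 179429 CPM of the treatment-naïve panel. CXCL8, the neutrophil chemokine interleukin-8, stood at 26486 CPM in paclitaxel-resistant cells and 117868 CPM in treatment-naïve cells, 4.45-fold lower in paclitaxel-resistant cells (95% counting interval 4.44 to 4.46), although 99.9% of resistant cells still held it. IL1B, the cytokine interleukin-1 beta, stood at 863 CPM in paclitaxel-resistant cells and 24049 CPM in treatment-naïve cells, 27.9-fold lower in paclitaxel-resistant cells (95% counting interval 27.5 to 28.3), in 76.8% of paclitaxel-resistant and 99.1% of treatment-naïve cells. PTGS2, the prostaglandin synthase COX-2, stood at 297 CPM in paclitaxel-resistant cells and 11798 CPM in treatment-naïve cells, 39.7-fold lower in paclitaxel-resistant cells (95% counting interval 38.8 to 40.7), in 48.7% of paclitaxel-resistant and 95.1% of treatment-naïve cells. For these 3 genes the bulk of the cells moved: 59.9%, 87.8% and 72.7% of treatment-naïve cells exceeded the resistant 95th percentile of CXCL8, IL1B and PTGS2 in that order.

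Other mediators were unevenly spread over the treatment-naïve cells. S100A9, a subunit of calprotectin, stood at 106 CPM in paclitaxel-resistant cells and 4383 CPM in treatment-naïve cells, 41.4-fold lower in paclitaxel-resistant cells (95% counting interval 39.7 to 43.1), in 15.7% of paclitaxel-resistant and 56.7% of treatment-naïve cells, and the 5% of naïve cells with most of it held 54.3% of its thinned UMIs. CCL5, a T cell-attracting chemokine, stood at 866 CPM in paclitaxel-resistant cells and 15651 CPM in treatment-naïve cells, 18.1-fold lower in paclitaxel-resistant cells (95% counting interval 17.8 to 18.3), in 57.9% of paclitaxel-resistant and 82.00% of treatment-naïve cells, with 59.7% of the naïve UMIs in the top 5% of cells. CCL3, a macrophage chemokine, stood at 15.3 CPM in paclitaxel-resistant cells and 306 CPM in treatment-naïve cells, 19.98-fold lower in paclitaxel-resistant cells (95% counting interval 17.97 to 22.3). It was found in only 2.05% against 7.05% of cells, and 99.3% of its naïve UMIs lay in the top 5%. CXCL12, the ligand of CXCR4, stood at 4.700 CPM in paclitaxel-resistant cells and 293 CPM in treatment-naïve cells, 62.4-fold lower in paclitaxel-resistant cells (95% counting interval 51.7 to 76.1), in 1.76% of paclitaxel-resistant and 25.96% of treatment-naïve cells. The 2 mediators that rose were CSF1, the macrophage colony-stimulating factor, at 2146 against 1019 CPM, and the chemokine CXCL14, at 22.6 against 5.83 CPM and in 4.07% against 1.98% of cells. IL6 was at 3947 against 2707 CPM, under the rule.

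The 250 bases before the RefSeq starts of CXCL8 and PTGS2 are shown because these 2 inflammatory genes fell in the bulk of the cells. They are in GRCh38.p14, at chr4:73740319-73740568 on the plus strand and chr1:186680424-186680673 on the minus strand, 5′ to 3′. Capitals mark matches to TGACTCA or TGAGTCA (AP-1), CCAAT or TATAAA on either strand.
CXCL8: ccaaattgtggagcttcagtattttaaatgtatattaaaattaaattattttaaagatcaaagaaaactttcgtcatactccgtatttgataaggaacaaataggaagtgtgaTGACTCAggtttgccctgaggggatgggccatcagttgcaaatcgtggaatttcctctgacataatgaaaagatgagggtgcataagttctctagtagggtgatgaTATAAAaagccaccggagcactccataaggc
PTGS2: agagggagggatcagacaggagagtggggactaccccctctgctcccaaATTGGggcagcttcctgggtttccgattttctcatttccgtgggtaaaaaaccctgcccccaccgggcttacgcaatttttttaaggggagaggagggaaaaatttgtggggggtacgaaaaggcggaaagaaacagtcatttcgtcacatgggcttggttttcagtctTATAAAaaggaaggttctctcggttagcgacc
CXCL8 held 1 AP-1 match and 1 TATAAA match, and PTGS2 held 1 CCAAT and 1 TATAAA match. AP-1 letters were in 3 of the 12 inflammatory promoters of the table and TATAAA in 5 of 12, against 4.20% and 10.7% of all promoters. Of the 3 genes with AP-1 letters, CXCL8 fell, IL1RN was under the rule and CXCL14 rose. Over all matched genes AP-1 letters were in 4 of 53 that fell and 2 of 35 that rose, and TATAAA in 9 of 53 and 5 of 35. These matches, too, describe letters and say nothing of binding.

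Basal and epithelial genes fell: of 12 measured, 8 were lower and 1 higher, with a median log2 fold of -1.31. KRT14, a basal keratin, stood at 34.6 CPM in paclitaxel-resistant cells and 3611 CPM in treatment-naïve cells, 104-fold lower in paclitaxel-resistant cells (95% counting interval 97.5 to 112), in 8.75% of paclitaxel-resistant and 59.4% of treatment-naïve cells. KRT17, a further basal keratin, was lower by 2.58-fold only, at 4848 against 12489 CPM, and remained in 99.9% of resistant cells. TP73, the p63-related transcription factor, stood at 121 against 629 CPM in 28.9% of paclitaxel-resistant and 72.7% of treatment-naïve cells, and CDH3, the basal P-cadherin, at 10.8 against 129.9 CPM in 3.82% of paclitaxel-resistant and 19.7% of treatment-naïve cells. AREG, the EGFR ligand amphiregulin, stood at 114 CPM in paclitaxel-resistant cells and 2543 CPM in treatment-naïve cells, 22.3-fold lower in paclitaxel-resistant cells (95% counting interval 21.5 to 23.2), in 25.7% of paclitaxel-resistant and 54.1% of treatment-naïve cells. Thus KRT14, TP73, CDH3 and AREG were found in fewer resistant cells, while KRT17 differed in level only. ITGA6, the laminin-binding integrin alpha 6, was under the rule at 1396 against 2025 CPM and was found in 94.5% of paclitaxel-resistant and 89.2% of treatment-naïve cells. SFN, the epithelial 14-3-3 sigma protein, was at 259.7 against 265 CPM. EPCAM, the 1 gene of this list that rose, was at 6.28 against 1.45 CPM with UMIs in 2.29% against 0.547% of cells. The epithelial keratins KRT8 and KRT18, which also rose, were counted in the keratin and luminal lists and not in this one.

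The simple-epithelium keratins moved against the basal ones. KRT8 stood at 4481 CPM in paclitaxel-resistant cells and 1209.6 CPM in treatment-naïve cells, 3.705-fold higher in paclitaxel-resistant cells (95% counting interval 3.65 to 3.76), and its partner KRT18 at 16182 CPM in paclitaxel-resistant cells and 7306 CPM in treatment-naïve cells, 2.21-fold higher in paclitaxel-resistant cells (95% counting interval 2.202 to 2.23). Over the 6 keratins 2 rose and 3 fell, and their summed level was 25577 CPM in paclitaxel-resistant and 24655 CPM in treatment-naïve cells, so the total stayed close while its makeup differed. Of 15 luminal and hormone receptor genes 7 rose and 5 fell, beside 20.2% and 25.2% of all measured genes. FOXA1, a pioneer factor of luminal cells, stood at 135 CPM in paclitaxel-resistant cells and 21.1 CPM in treatment-naïve cells, 6.39-fold higher in paclitaxel-resistant cells (95% counting interval 5.78 to 7.06), in 35.8% of paclitaxel-resistant and 7.79% of treatment-naïve cells. The oestrogen receptor ESR1 passed the rule at very low level, 4.401 against 0.654 CPM, with UMIs in 1.65% against 0.245% of cells. Among the genes that fell, MLPH, encoding melanophilin, was at 0.598 against 6.07 CPM and GRB7, an ERBB2-associated adaptor, at 0.684 against 2.801 CPM, both in under 2% of cells of either population.

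Binding proteins of the insulin-like growth factor axis fell. IGFBP3, the main carrier of circulating IGFs, had the largest fall of the panel, at 20.6 CPM in paclitaxel-resistant cells and 2823 CPM in treatment-naïve cells, 137-fold lower in paclitaxel-resistant cells (95% counting interval 125 to 150.2), in 7.07% of paclitaxel-resistant and 46.8% of treatment-naïve cells. IGFBP5, a tissue-bound carrier, stood at 1353 CPM in paclitaxel-resistant cells and 7458 CPM in treatment-naïve cells, 5.51-fold lower in paclitaxel-resistant cells (95% counting interval 5.44 to 5.58), but was still found in 65.9% of paclitaxel-resistant and 70.2% of treatment-naïve cells. IGFBP7, a low-affinity member, stood at 7602 CPM in paclitaxel-resistant cells and 19502 CPM in treatment-naïve cells, 2.57-fold lower in paclitaxel-resistant cells (95% counting interval 2.55 to 2.58), in 97.3% of paclitaxel-resistant and 99.7% of treatment-naïve cells. The receptor IGF1R was at 769.9 against 784 CPM, 1.02-fold apart. For IGFBP5, 43.2% of resistant cells were at or above the naïve median of 2 UMIs, and the top 5% of naïve cells held 51.7% of its thinned UMIs. With the top 5% left out of both populations it was 5.87-fold lower in resistant cells. The carriers thus differed in how their fall was spread, with IGFBP3 found in few resistant cells and IGFBP5 and IGFBP7 in most.

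Some of the fallen genes left a trace in the resistant population. IGFBP3 remained at 0.730% of its treatment-naïve level, KRT14 at 0.957% and ALDH1A1 at 0.908%. RNA carried over between populations of one cartridge can leave such a trace, and its part was not tested. The 81 resistant cells with at least 2 KRT14 UMIs held 374 of the 809 KRT14 UMIs of that population. ABCB1 was at 4325 CPM in them and 4653 CPM in the other resistant cells, LGALS1 at 142362 and 146524 CPM, and IGFBP3 at 40.6 and 20.3 CPM. IL1B was at 1364 and 855 CPM, and PTGS2 at 498 and 294 CPM. IGFBP3, IL1B and PTGS2 thus stood higher in these cells than in other resistant cells, the IGFBP3 value resting on 14 UMIs. They stayed well under their treatment-naïve levels of 2823, 24049 and 11798 CPM. S100A9, at 95.6 and 106 CPM, and CXCL8, at 21689 and 26558 CPM, stood lower in these cells than in other resistant cells.

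Interferon and antigen presentation genes fell more often than they rose, with 6 of 10 lower, 1 higher and a median log2 fold of -1.22. Over all measured genes 25.2% fell and 20.2% rose. CD74, the class II invariant chain, was at 21.3 against 65.4 CPM, and ICOSLG, a T cell costimulator, at 2.05 against 13.7 CPM. CIITA, the class II transactivator, passed the rule upward at 3.55 against 1.26 CPM. Of 12 metabolic enzymes 2 rose, the nucleotide enzymes TYMS and RRM2 described above, and 4 fell, not far from those shares over all measured genes. ALDH1A1, a retinal dehydrogenase used as a stem cell marker, stood at 0.897 CPM in paclitaxel-resistant cells and 98.9 CPM in treatment-naïve cells, 110.2-fold lower in paclitaxel-resistant cells (95% counting interval 71.9 to 178), in 0.356% of paclitaxel-resistant and 18.8% of treatment-naïve cells. PHGDH, the first enzyme of serine synthesis, stood at 2165 against 6703 CPM and was kept by 96.1% of resistant cells.

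Among other signalling genes, VEGFA, the vascular endothelial growth factor, stood at 4854 CPM in paclitaxel-resistant cells and 12839.8 CPM in treatment-naïve cells, 2.65-fold lower in paclitaxel-resistant cells (95% counting interval 2.63 to 2.66), and was found in 99.9% of cells of either population. ESM1, an endothelial proteoglycan, rose at 47.4 against 14.1 CPM. DKK1, a secreted Wnt inhibitor, rose at 12.6 against 2.75 CPM, and GLI1, a transcription factor of the Hedgehog pathway, fell, at 75.3 against 251 CPM and in 22.7% of paclitaxel-resistant and 49.3% of treatment-naïve cells. NOTCH1 was measured at 2.61 against 5.88 CPM and passed the rule downward. Of 15 kinases and growth factor receptors 1 rose and 2 fell, beside 20.2% and 25.2% of all measured genes. MAPK3, the kinase ERK1, was the 1 that rose, at 350.4 against 172 CPM. The receptor kinases FGFR4 and EPHA6 were scarce in both populations. FGFR4 had 49 UMIs in resistant and 287 in naïve cells, and EPHA6 3 and 76 UMIs, a ratio of 27.7 with a counting interval of 9.12 to 137. MYB, a transcription factor of progenitor cells, rose at 31.1 against 2.99 CPM, in 9.87% of paclitaxel-resistant and 1.15% of treatment-naïve cells.

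The shares of cells with a transcript followed the levels in most genes. After thinning, the population with the higher level also had the transcript in more cells for 50 of the 53 genes that rose and 64 of the 66 that fell. A gene past the rule was called population-wide when at least 50% of thinned cells of its higher population held it and its fold stayed at 2 or more without the top 5% of those cells. It was called subset-carried when the top 5% of cells held at least 50% of its UMIs and the variance over cells was at least 2 times the mean. By these rules 17 of the genes that rose were population-wide, 4 were subset-carried and 32 were neither. Of the genes that fell, 18 were population-wide, 18 subset-carried and 30 neither. Of the genes that were neither, 14 of the 32 and 18 of the 30 were found in under 10% of thinned cells. Counted in UMIs, those 17 genes held 92.5% of the resistant UMIs of all genes that rose, and the 4 subset-carried genes 0.0702%. The population-wide rule asks for detection in at least 50% of thinned cells. It therefore favours abundant genes, and these shares of UMIs follow in part from the rule. For the genes that fell, 82.7% of their naïve UMIs were in population-wide and 11.7% in subset-carried genes.

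**Figure D4:**
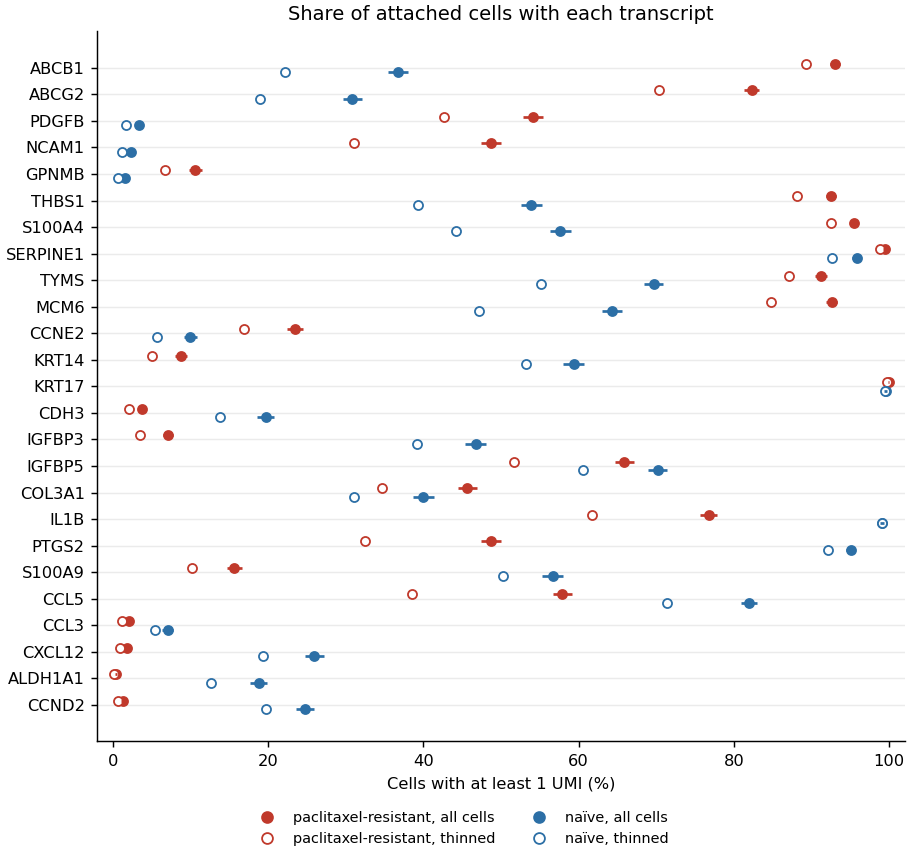
Cells with at least 1 UMI of 25 genes (horizontal axis, percent), for paclitaxel-resistant (red, upper row of each pair) and treatment-naïve cells (blue, lower row). Filled points with 95% Clopper-Pearson bars are all cells and open points are cells thinned to 2000 UMIs; ABCB1 is in 93.1% against 36.7% of all cells, KRT14 in 8.75% against 59.4%, and COL3A1 in 45.7% against 40%.

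The 4 subset-carried genes that rose were GPNMB, CCNE2, CXCL14 and ESM1. GPNMB, a membrane glycoprotein of melanocytes and macrophages, stood at 57.2 CPM in paclitaxel-resistant cells and 4.15 CPM in treatment-naïve cells, 13.8-fold higher in paclitaxel-resistant cells (95% counting interval 11.1 to 17.3), in 10.6% of paclitaxel-resistant and 1.602% of treatment-naïve cells, with 84.8% of its thinned UMIs in the top 5% of resistant cells. Of the 270 cells with most GPNMB, 21 (7.78%) were also among the 270 with most ESM1 and 15 (5.56%) among the 270 with most CCNE2, where unrelated sets of this size would share 5%. Of the 138 cells with thinned CXCL14 UMIs, 18 (13.04%) were top GPNMB cells, and CCNE2 and ESM1 shared 23 of 270 (8.52%). The overlaps were thus at or above that share, and most top cells of each gene lay outside the others. The subset-carried genes that fell were led by IGFBP3, ALDH1A1, CXCL12, S100A9, AREG, CCL3, CCL5, CDH3, IGFBP5, IL7R, CD14, CD74, CD274 and COL3A1. FCGR3A, KRT5, PTGDS and HLA-DRB1 met the same rule on UMIs in under 2% of cells of either population.

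In treatment-naïve cells some of these genes shared their top cells and others kept apart. The 240 cells with most CCL5 and the 240 with most IL7R, the interleukin-7 receptor, had 87 cells in common (36.2%), and CCL5 and CCL3 had 69 (28.8%). COL3A1 and IGFBP5 shared 35 of 240 (14.6%), CD14 and IGFBP5 37 (15.4%), CXCL12 and IGFBP5 33 (13.8%), and CDH3 and S100A9 39 (16.2%). In contrast, the top COL3A1 cells shared 1 of 240 cells (0.417%) with those of AREG, 1 with those of CDH3 and 1 with those of CD74. CCL5 shared 11 of 240 (4.58%) with COL3A1 and 5 (2.08%) with CDH3. CCL3 and COL3A1 shared 20 (8.33%). The cells richest in COL3A1 thus rarely held much AREG, CDH3 or CD74, whereas their overlap with the chemokine-high cells lay near or above the 5% of unrelated sets. Over the 91 pairs with 240 cells on each side the median overlap was 5.42%.

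**Figure D5:**
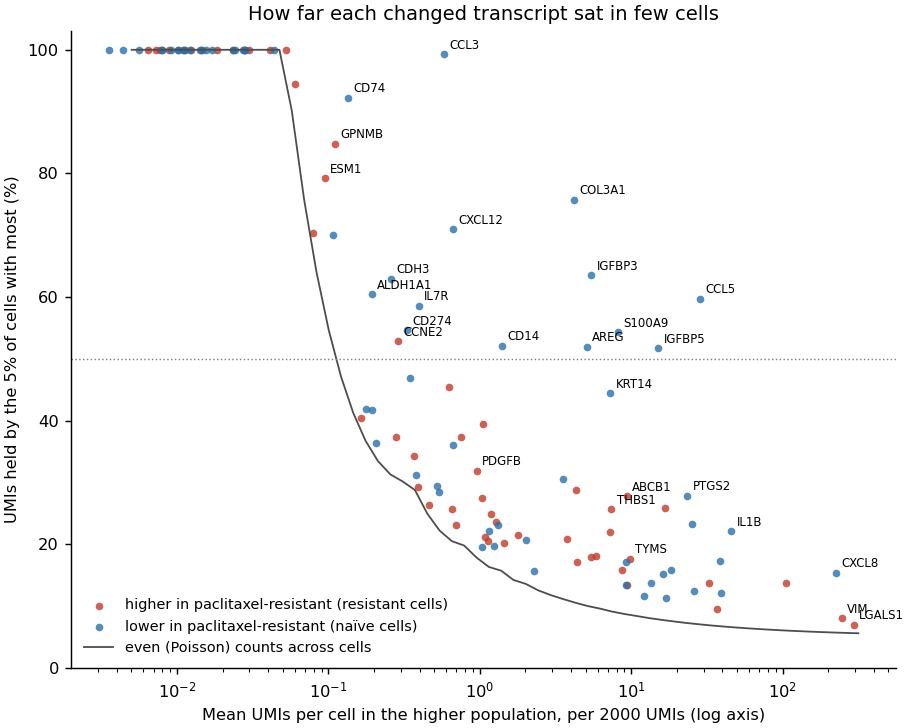
Share of a gene's UMIs held by the 5% of cells with most of it (vertical axis, percent) against its mean UMIs per cell after thinning to 2000 UMIs (horizontal log axis), in the higher population: paclitaxel-resistant cells for the 53 genes that rose (red) and treatment-naïve cells for the 66 that fell (blue). The line is the share expected of Poisson counts and the dotted line marks 50%; CCL3 at 99.3%, COL3A1 at 75.7% and IGFBP3 at 63.5% lie far above the line, while VIM at 8.03% and LGALS1 at 6.98% lie close to it.

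LYZ was taken as a rough guide to the level of stray UMIs. This gene, encoding lysozyme of myeloid cells, was found in 0.220% of paclitaxel-resistant and 0.264% of treatment-naïve cells. Other lineage genes gave other levels: CD3E was found in 0% and 0.0566% of paclitaxel-resistant and treatment-naïve cells, and CD79A in 2.54% and 1.49%. A single gene thus cannot fix this level for others. By the LYZ guide, shares at or below its own are not told apart from stray UMIs. They include those of PTGDS in both populations, of TNF in resistant cells (0.204%), and of PTPRC, ESR1 and C1QA in naïve cells (0.0943%, 0.245% and 0.113%), so the naïve levels behind the folds of those 3 genes are uncertain. FCRLA and CD14, also known from blood cells, were well above the LYZ share in both populations. FCRLA, an Fc receptor-like protein of B cells, stood at 72.5 CPM in paclitaxel-resistant cells and 1754 CPM in treatment-naïve cells, 24.2-fold lower in paclitaxel-resistant cells (95% counting interval 23.05 to 25.4), in 21.05% of paclitaxel-resistant and 82.6% of treatment-naïve cells. CD14, the monocyte co-receptor for lipopolysaccharide, stood at 167 CPM in paclitaxel-resistant cells and 700.3 CPM in treatment-naïve cells, 4.197-fold lower in paclitaxel-resistant cells (95% counting interval 4.05 to 4.35). PTPRC, the leukocyte phosphatase CD45, was found in 2.99% of paclitaxel-resistant and 0.0943% of treatment-naïve cells, at 213 and 5 UMIs, 38.99-fold higher in paclitaxel-resistant cells (95% counting interval 16.5 to 121). CD3D, of the T cell receptor complex, had 27 and 129 UMIs, CD86, a costimulator of antigen-presenting cells, 3 and 160, and C1QA, a complement chain of macrophages, 82 and 9. CD86 was found in 0.0509% and CD3D in 0.237% of resistant cells. The lineage genes thus moved in both directions, but PTPRC, CD3D, CD86 and C1QA lay near or below the LYZ share in resistant or naïve cells. CD3E, the partner of CD3D, had 0 and 3 UMIs, and 0 of 5896 resistant cells allows a share of cells with a UMI of up to 0.0509%.

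The other populations were used only to see which shifts stood apart. The doxorubicin-resistant attached cells are set against the same treatment-naïve cells, so their values are given side by side. Most shifts did not stand apart from them: 38 of the 53 genes that rose also rose there, and none fell. Of the 66 that fell, 51 also fell and 2 rose. Because both comparisons share their treatment-naïve cells, this overlap is not independent. ABCB1 was at 4648 CPM in paclitaxel-resistant cells, 7691 CPM in doxorubicin-resistant cells and 146 CPM in treatment-naïve cells. PDGFB was at 445 CPM, 135 CPM and 9.52 CPM in the same order, and GPNMB at 57.2, 438 and 4.15 CPM. PDGFB was thus highest in the paclitaxel-resistant population and GPNMB in the doxorubicin-resistant one. In spheroids, with their own treatment-naïve cells, 16 of the 53 rose and 2 fell with paclitaxel resistance, and 36 of the 66 fell and 1 rose, where 9.92% of the 252 genes measured in spheroids rose and 20.2% fell. ABCB1 was at 3472 CPM in paclitaxel-resistant and 286 CPM in treatment-naïve spheroids, and KRT14 at 36.4 and 3025 CPM. THBS1, at 1304 and 746 CPM, was 1.75-fold higher there and did not pass the rule. Spheroid cells were shallower, with median depths of 1629 and 1538.5 UMIs.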

How the data were processed

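The authors deposited, per population, a matrix of UMI counts for the genes of the panel in each cell. By the study's methods, sequences were processed on a cloud platform and the molecule counts adjusted by RSEC. The submitters' processing notes name hg38. Filters applied to cells before deposit are not given in the sources used here. All deposited cells were used and no doublet caller was run. The attached populations together hold 18233 deposited cells, although the labels give about 15000 cells pooled on that cartridge, and the reason is not known. Files were assigned to populations by their names. Genes absent from a population's gene list were taken as 0.

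UMIs were summed per gene and scaled to CPM by the population total. Folds have exact conditional binomial 95% intervals, shares of cells exact Clopper-Pearson intervals, and both cover counting error only. With 1 population per group no test was run. A gene was measured at 50 UMIs in either population and passed the rule at a fold of 2. Cells were thinned without replacement to 2000 UMIs. For the overlap of top cells, ties were broken at random with a fixed seed and only cells holding the gene were kept. The fold, interval and subset-carried steps were tested on simulated data, the last at a lower thinning depth. The population-wide class was not tested in this way, and the interval test covered counting error only.

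The members and gene lists were chosen with earlier results of these data known. Genes were named by a rule: the 10 largest folds and the 5 largest CPM changes in each direction, the 2 highest and 2 lowest members of each of 22 lists, and the 12 subset-carried genes of largest fold, of which some are not reported here. C4A, CCNB1, CCND1, CD274, COL1A1, ERBB2, GAPDH, HLA-DRB1, IL6, IL7R, ITGA6, KRT17, MCM6, MDM2, MKI67, MYBL2, NAT1, PHGDH, PTTG1, TNF and TP73 were named after their values were seen. RefSeq promoters and positions are in GRCh38.p14, and 189 of 262 measured genes matched the promoter table. The alternatives were other scalings, UMI minimums, folds, thinning depths and sets of cells. Python 3.11.15, NumPy 2.4.6, SciPy 1.17.1 and pandas 2.3.3 were used.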

Additional observations from a re-analysis of the deposited data

Results flagged for a closer look

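A total of 3 genes passed the size rule in opposite directions in attached cells and in spheroids, a difference that was not tested since each population is 1 culture. The log2 fold of C4A, a complement component, was 1.76 in attached cells, with 11364 UMIs in paclitaxel-resistant and 3068 in treatment-naïve cells, and -1.50 in spheroids, with 1757 and 6640 UMIs. For ICOSLG it was -2.74 in attached cells, with 48 and 293 UMIs, and 1.01 in spheroids, with 356 and 237 UMIs. For NAT1, an N-acetyltransferase, it was 1.21 in attached cells, with 139 and 55 UMIs, and -1.04 in spheroids, with 20 and 55 UMIs.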

How the results depend on the processing

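The 53 genes that rose and 66 that fell were recounted under 14 alternatives. The count of rises moved by over 1.5 times only when a 3-fold difference was asked, which left 33 genes. The other counts stayed within that limit, between 46 and 73 rises and between 45 and 88 falls, and no gene past the rule passed it in the opposite direction. Scaling by unscaled UMI totals or without the 5 most abundant genes moved the median log2 fold to 0.10 and 0.09 from -0.02. Of the 91 genes followed under 9 alternatives, none that passed the rule changed sign where it had a value. Some had none when the cells with most of each gene were left out. The size of the folds was less steady. Under unscaled UMI totals 54 folds left their counting interval and 37 stayed. With the 1% of cells with most of each gene left out 60 left it and 26 stayed, and with the 5% left out 63 and 7. With cells under 2000 UMIs left out 11 left it and 80 stayed. Leaving out the 5% of cells with most of each gene was chosen after seeing the data. The medians of the angiogenic list, the keratins and the myeloid markers changed sign under at least 1, so no direction is given for them. Under 5 other class settings subset-carried genes numbered 15 to 23 and population-wide genes 24 to 42. No paired analysis was possible because each group holds 1 population. Genes under about 50 UMIs are limited by depth.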
